A study of Homo sapiens with 16 samples.

Results

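The genes described here encode proteins of the human mitochondrial ribosome and carry symbols that begin with MRPS or MRPL and continue with a number. In the deposited count table of 26475 genes, 77 symbols fitted this pattern, and the 76 of them with at least 10 counts in every library were taken as members. Of these, 28 were MRPS genes, named for the small ribosomal subunit, and 48 were MRPL genes, named for the large subunit. The 1 symbol left out was MRPS24, which had 0 to 67 counts per library and fewer than 10 counts in 3 libraries. It overlaps the readthrough gene URGCP-MRPS24, which had 0 counts in all 16 libraries.

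The mitochondrial ribosome translates the few proteins encoded by mitochondrial DNA, which are core subunits of the respiratory chain and of ATP synthase. Its RNA comes from the mitochondrial genome, whereas all of its proteins are encoded in the nucleus, translated in the cytosol and imported. It lost RNA and gained proteins relative to the ribosome of bacteria, so that 46 members are known to have a bacterial counterpart and 30 are taken to be without one. MRPS18A and MRPS30 sit in the large subunit in spite of their names, and MRPS36 is now regarded as a component of the 2-oxoglutarate dehydrogenase complex. The symbols and subunit names were kept as the table gives them.

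RNA sequencing was done on 16 libraries of MCF10A, an immortalized line of human breast epithelial cells that does not form tumors. The 4 groups of 4 libraries were a vehicle control that received DMSO and no collagen (Control), collagen 1 with DMSO (Collagen), collagen 1 plus DDR1-IN-1, an inhibitor of the DDR1 kinase (DDR1i), and collagen 1 plus a small molecule that inhibits binding of RUNX proteins to their partner CBFβ (RUNXi). Cells were exposed to 2 μM DDR1-IN-1 or 5 μM of the RUNX inhibitor for 48 h, with 0.05 mg/mL collagen during the last 24 h. No group received an inhibitor without collagen, all libraries came from 1 cell line, and no source says that replicates came from separate cultures, so p-values measure the spread between these libraries.

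Library totals ranged from 12184619 to 44332378 counts. The lowest count of any member in any library was 123, for MRPL23, so all members were well above the minimum of 10 counts. Basal breast epithelial markers were abundant (KRT5 at 6968 to 11589 CPM, counts scaled to library size), the immune marker PTPRC had 1 count in all libraries together, the endothelial marker CDH5 had 0, and CDKN2A, which is deleted in MCF10A, had 0. Of the other markers examined, CD68 reached 28.7 CPM and DCN 30.1 CPM. The authors removed collagen replicate 3 as an outlier, and it was left out of the tests here as well, with its values and the results with it included given beside those of the called members. In the tests, 3 collagen libraries were therefore set against 4 libraries of each other group. Collagen replicate 4 also stood apart, because its gene levels, relative to each gene's mean over the 16 libraries, fell with transcript length. The fall was 0.21 on the log2 scale per doubling of length, whereas the slopes of the other 15 libraries lay between -0.08 and 0.08.

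Promoters are shown for the members lower with RUNXi than with collagen alone at an adjusted p under 0.05 in edgeR, since the inhibitor acts on a DNA-binding transcription factor and the members moved together. Of the 76 members, 67 had an entry among the RefSeq promoters (GRCh38.p14; 250 bases before to 50 after the start). Short motifs were searched on both strands in the whole window, and matches to different motifs were allowed to overlap. The ETS family motif CCGGAAG, bound by GABP among others, was found in 28 of the 67 windows (41.8%), against 14.2% of 15842 protein-coding genes and 10.7% of all 27305 genes in the collection. AANATGGC, a YY1 motif, was found in 24 (35.8%, against 7.92% and 6.82%), and the motif of NRF1 in 8 (11.9%, against 8.57% and 6.28%). The RUNX motif TGTGGT was found in 4 windows (5.97%, against 10.8% and 13.1%), those of MRPS18C, MRPL22, MRPL38 and MRPL4. CACGTG, the E-box bound by MYC and others, was found in 6 (8.96%, against 8.88% and 7.43%), and GGGCGG, bound by SP1, in 40 (59.7%, against 58.5% and 44.6%). A match is a description of the letters only. The 110 bases directly before the start are shown with these motifs in capitals.
MRPL22, chr5:154940963-154941072, plus strand: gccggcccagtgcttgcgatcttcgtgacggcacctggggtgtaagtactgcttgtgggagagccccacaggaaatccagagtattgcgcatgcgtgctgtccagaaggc
MRPL9, chr1:151763497-151763606, minus strand: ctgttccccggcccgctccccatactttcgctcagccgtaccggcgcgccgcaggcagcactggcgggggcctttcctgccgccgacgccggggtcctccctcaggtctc
MRPL47, chr3:179604639-179604748, minus strand: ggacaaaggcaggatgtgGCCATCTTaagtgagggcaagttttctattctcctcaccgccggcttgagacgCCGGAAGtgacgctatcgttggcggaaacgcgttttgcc
MRPL32, chr7:42932266-42932375, plus strand: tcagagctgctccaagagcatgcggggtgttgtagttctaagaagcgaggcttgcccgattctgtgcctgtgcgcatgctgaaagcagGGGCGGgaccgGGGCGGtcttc
MRPL16, chr11:59810779-59810888, minus strand: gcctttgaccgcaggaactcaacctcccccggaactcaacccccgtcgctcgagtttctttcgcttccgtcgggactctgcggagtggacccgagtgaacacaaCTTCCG
MRPS7, chr17:75261769-75261878, plus strand: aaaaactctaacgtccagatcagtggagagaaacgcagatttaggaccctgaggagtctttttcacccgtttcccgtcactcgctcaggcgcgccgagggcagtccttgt
MRPS22, chr3:139343884-139343993, plus strand: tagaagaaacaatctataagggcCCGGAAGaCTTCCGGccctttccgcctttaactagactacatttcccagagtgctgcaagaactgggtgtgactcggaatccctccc
MRPS23, chr17:57850045-57850154, minus strand: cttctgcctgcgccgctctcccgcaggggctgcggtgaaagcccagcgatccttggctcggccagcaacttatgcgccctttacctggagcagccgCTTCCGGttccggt
MRPL39, chr21:25607482-25607591, minus strand: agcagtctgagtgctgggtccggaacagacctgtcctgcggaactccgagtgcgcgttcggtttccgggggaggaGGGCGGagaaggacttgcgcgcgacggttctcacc
These are 9 of the 10 members called lower with RUNXi (all but MRPL13), against 1.46% of all genes tested that were called lower. In the stretch shown, MRPS22 held both orientations of the ETS motif almost side by side, MRPL47 held a YY1 and an ETS motif, and MRPS23 held an ETS motif near its start. The ETS match of MRPL16 runs across the start, MRPL32 and MRPL39 held SP1 motifs, and MRPL22, MRPL9 and MRPS7 held none of the motifs in this stretch. In the whole window, 4 of the 9 held an ETS motif, 5 a YY1 motif, 4 an SP1 motif and 1 a RUNX motif, and the E-box, RUNX and YY1 matches of MRPL22 lay outside the stretch shown. No test was made of these shares.

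The members were moderately to highly expressed, from 12.7 CPM for MRPL23 to 228 CPM for MRPL3 as the mean over all 16 libraries. Per kilobase of the canonical transcript, the highest level was that of MRPL12, which also binds the mitochondrial RNA polymerase, with 193 CPM per kilobase (range over libraries 166 to 253). It was followed by MRPL4 with 159.6 (130.0 to 208), MRPL51 with 153 (127 to 215), MRPS12 with 148 (114 to 211) and MRPS34 with 145 (111 to 192). The ranges of these 5 members overlapped, so their order is not firm. The lowest levels per kilobase were those of MRPL42 at 4.24 (3.31 to 5.33), MRPS11 at 11.3 (8.59 to 14.3), MRPL19 at 12.1 (9.92 to 14.9), MRPS23 at 13.8 (10.3 to 19.6) and MRPL50 at 14.3 (9.07 to 20.1). MRPL42 was below the other 4 in every library, and its canonical transcript is annotated with a length of 15557 bases, far above the median of the members of 1288 bases. Levels per kilobase depend on the annotated length, so a low value need not mean a low CPM, as for MRPS23, whose CPM is given below. The median of the members was 54.7 CPM per kilobase.

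Within groups, the log2 CPM of a member had a median SD of 0.19. MRPS26 (0.10), MRPS16 (0.11) and MRPL9 (0.12) varied least among replicates, and MRPL54 (0.36), MRPL48 (0.34) and MRPS17 (0.33) varied most. Counts of some members are uncertain because reads could be split with other genes. Of the 76, 36 had at least 1 named pseudogene and 36 overlapped another protein-coding gene, and whether counting used strand is not given in the sources used here.

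As a group, the members were higher in collagen replicates 1, 2 and 4 than in the other groups, whereas collagen replicate 3 was among the inhibitor libraries. A score was computed per library as the mean over the 76 members of the log2 deviation from the member's mean in all 16 libraries. The score was 0.14, 0.19 and 0.48 in collagen replicates 1, 2 and 4, but -0.09 in collagen replicate 3. Control libraries had scores of -0.06, -0.02, -0.07 and -0.04, and RUNXi libraries had scores of -0.07, -0.07, -0.10 and -0.10. DDR1i libraries spread more widely, at 0.13, -0.12, -0.17 and -0.04, and DDR1i replicate 1 was close to collagen replicate 1. Fewer cells of a type and less RNA per cell cannot be told apart in such bulk libraries.

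**Figure D1:**
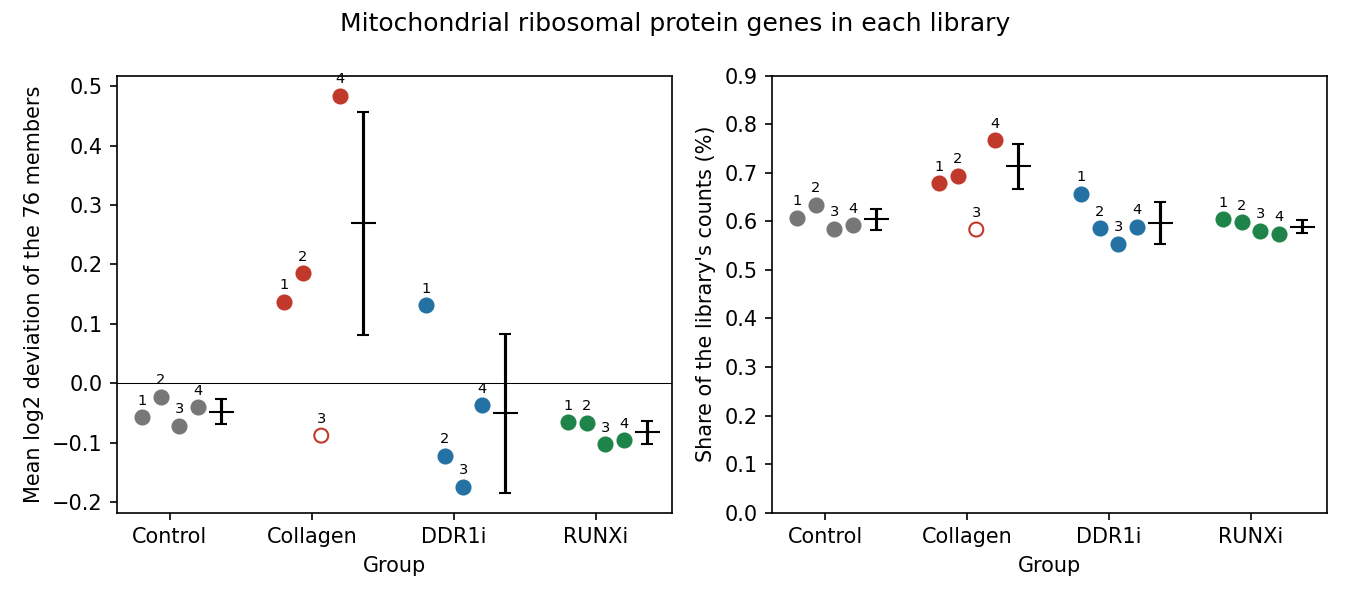
Left, the score of each library (mean log2 deviation of the 76 members) and right, the percentage of the library's counts that fell on the members, by group. Numbers are replicates and black marks are mean ± SD. Collagen replicate 3 (open circle, -0.09 and 0.583%) is outside the mean and lies among the inhibitor libraries and just below the control libraries.

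The members took 0.713% ± 0.0472 (SD, n = 3) of all counts in the collagen libraries and 0.605% ± 0.0218 (SD, n = 4) in the control libraries. The share was 0.597% ± 0.0435 (SD, n = 4) in the DDR1i libraries and 0.589% ± 0.0139 (SD, n = 4) in the RUNXi libraries. Collagen replicate 3 had 0.583%, which is within the range of both inhibitor groups and just below that of the control libraries. Both subunits had their highest mean score in collagen and their lowest with RUNXi, whereas control and DDR1i stood in opposite order in the subunits. The mean scores in collagen were 0.26 ± 0.16 (SD, n = 3) for the small subunit and 0.27 ± 0.21 (SD, n = 3) for the large subunit. With RUNXi they were -0.07 ± 0.04 (SD, n = 4) and -0.09 ± 0.01 (SD, n = 4).

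Among single libraries, collagen replicate 4 carried the highest level of 57 of the 76 members, against 16.2% of all genes tested. Collagen replicate 3 lay below all 3 of the other collagen libraries for 59 members (77.6%), against 26.2% of all genes. It fell inside the range that the 8 inhibitor libraries spanned for 69 members (90.8%), against 88.3% of all genes.

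**Figure D2:**
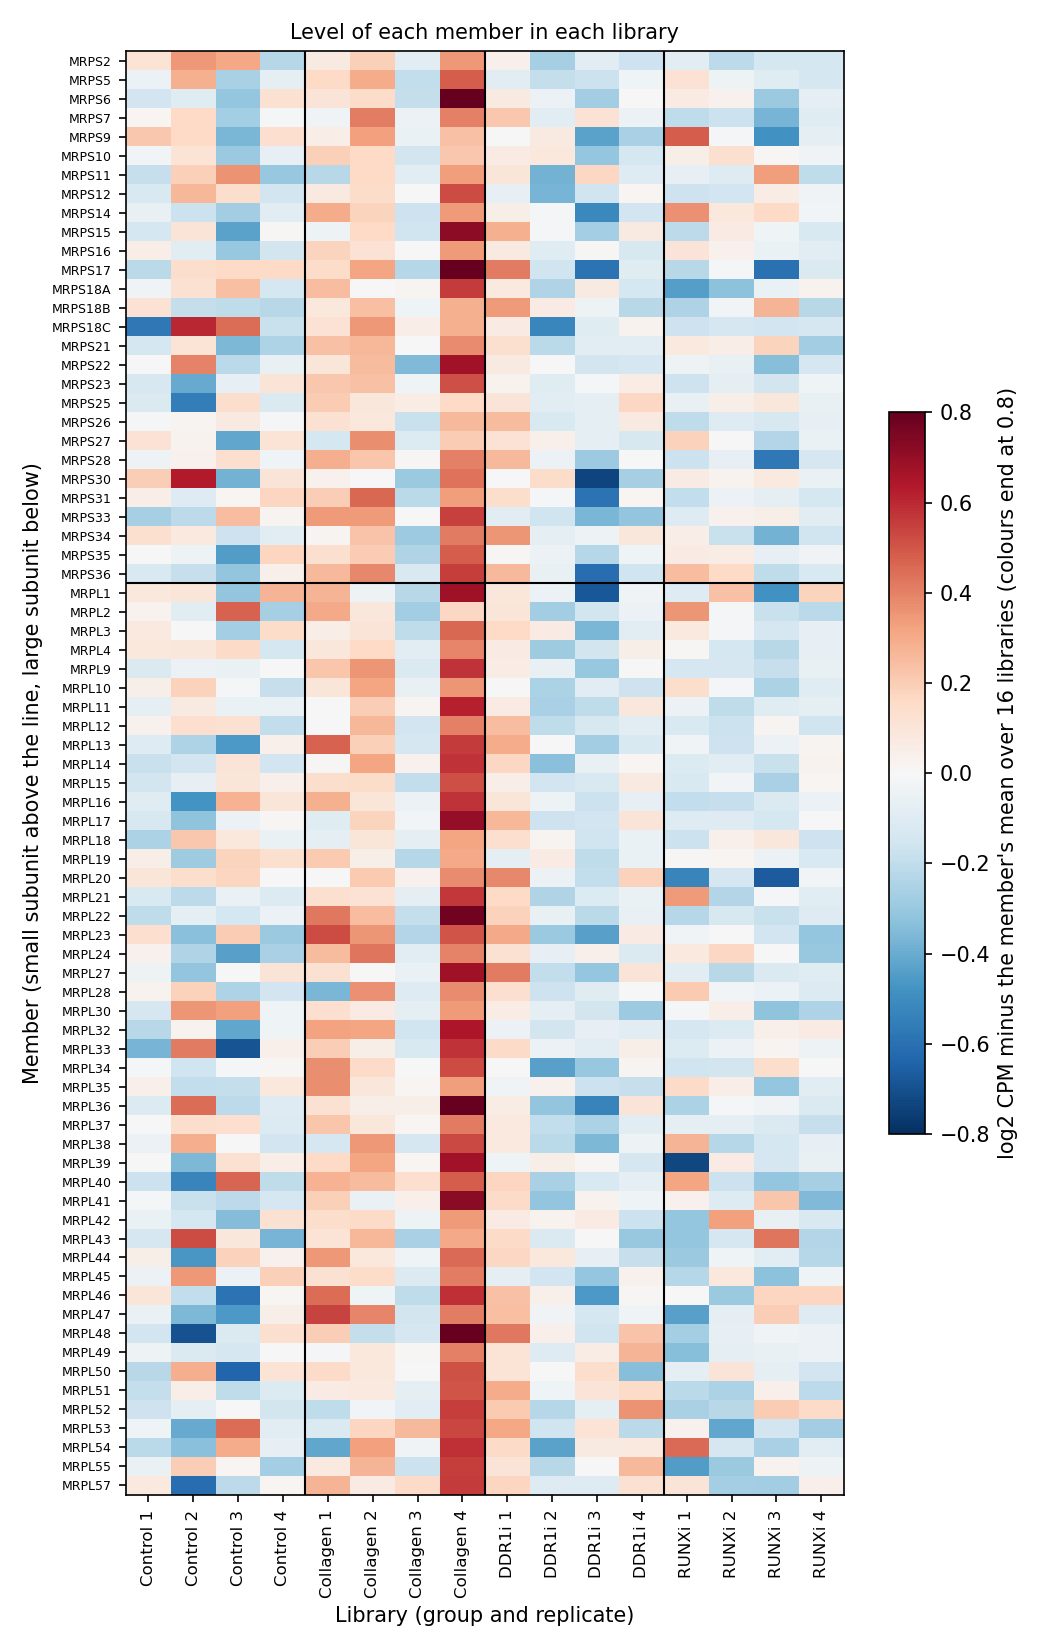
Log2 CPM of each member (rows) in each library (columns) minus the member's mean over the 16 libraries, with small-subunit genes above the black line. The column of collagen replicate 4 is above the mean for all 76 members, and the column of collagen replicate 3 is above it for 19.

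Collagen alone was first compared with the vehicle control, which asks what collagen does to these genes. None of the 76 members was called, a word used here for an adjusted p under 0.05 in the quasi-likelihood test of edgeR, adjusted by the Benjamini-Hochberg method over all genes tested, and 0.0% of the 13092 genes tested were. The log2 fold change was above 0 for 75 of 76 members, against 50.9% of all genes, with a median of 0.33 against 0.01. At an unadjusted p under 0.05, 29 members were higher and 0 lower (6.42% and 6.98% of all genes). DESeq2 called 6 of the 76, all higher, against 3.17% of all genes called in either direction. For 24 members, all 3 collagen libraries were above all 4 control libraries, against 6.45% of all genes.

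The highest fold change with collagen was that of MRPL47, which contacts the exit region of the large subunit and corresponds to bacterial L29. It had 109, 98.2 and 99.3 CPM in collagen replicates 1, 2 and 4, and 67.7 CPM in collagen replicate 3. In the control libraries it had 72.2, 58.3, 54.4 and 77.4 CPM, all below the 3 collagen libraries tested, whereas collagen replicate 3 was within their range. The log2 fold change was 0.65 (SE 0.16, edgeR adjusted p = 0.126). MRPL22 and MRPL13, the counterparts of bacterial L22 and L13, followed with 0.62 (SE 0.16, edgeR adjusted p = 0.129) and 0.61 (SE 0.15, edgeR adjusted p = 0.127). At the other end, MRPS30 had -0.01 (SE 0.21), MRPL30 0.05 (SE 0.16) and MRPS2 0.07 (SE 0.16). The median of the members went to 0.25 with collagen replicate 3 included and to 0.20 without collagen replicate 4. It went to 0.06 with the trend with transcript length removed from each library. In that last fit 27 members were below 0, and the median of all genes was -0.06, so most of all genes were below 0.

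DDR1 is a receptor tyrosine kinase that collagen activates, and DDR1i was compared with collagen alone to find which genes the kinase inhibitor changes in the presence of its ligand. With DDR1i, 4 of 76 members (5.26%) were called, and all 4 were lower, against 0.775% of the 13548 genes tested that were called lower and 2.47% called in either direction. They were MRPS33 of the small subunit and MRPL22, MRPL32 and MRPL34 of the large subunit. The log2 fold change was below 0 for all 76 members, against 49.7% of all genes, with a median of -0.34 against 0.00 for all genes. Members ranged from -0.64 to -0.07. In 31 members every DDR1i library was below each of the 3 collagen libraries, against 6.71% of all genes.

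**Figure D3:**
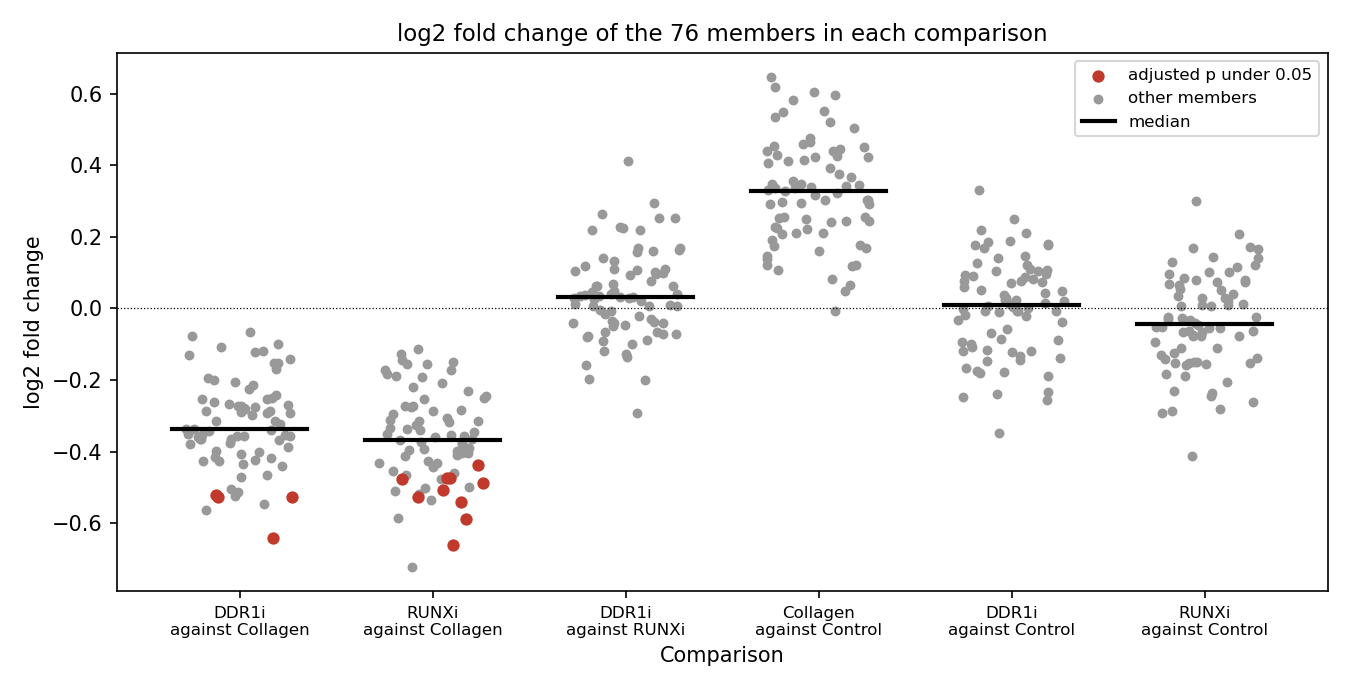
Log2 fold change of each of the 76 members (points) in the 6 comparisons, with the median as a line and called members in red. All points of both inhibitors against collagen are below 0 (medians -0.34 and -0.37), and the medians of both inhibitors against control are 0.01 and -0.04.

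MRPS33 (chr7:140702410-140715028, GRCh37, minus strand), a small-subunit protein without a bacterial counterpart, had the smallest adjusted p. Its level was 86.1, 86.0 and 99.5 CPM in collagen replicates 1, 2 and 4, and 64.0, 61.0, 52.7 and 54.6 CPM with DDR1i. The groups did not overlap, and collagen replicate 3, at 68.2 CPM, was between them. MRPS33 fell from 90.5 ± 7.76 CPM (SD, n = 3) to 58.1 ± 5.29 CPM (SD, n = 4), a log2 fold change of -0.64 (SE 0.13, edgeR adjusted p = 0.00993). Control libraries had 56.6, 58.9, 80.7 and 69.1 CPM, so DDR1i and control overlapped. With collagen replicate 3 included the log2 fold change was -0.56 (edgeR adjusted p = 0.206), and without collagen replicate 4 it was -0.56 (edgeR adjusted p = 0.0537).

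MRPL32 (chr7:42971975-42988557, plus strand) is the counterpart of bacterial L32 and is known as a substrate that the m-AAA protease must cleave before it joins the ribosome. It had 100.1, 99.6 and 125 CPM in collagen replicates 1, 2 and 4 and 77.6, 72.5, 76.6 and 75.6 CPM with DDR1i. The DDR1i libraries lay close together and below the collagen libraries, and collagen replicate 3 had 71.8 CPM, lower than all of them. The log2 fold change was -0.52 (SE 0.13, edgeR adjusted p = 0.0268), and the control libraries had 68.6, 81.6, 59.9 and 78.3 CPM.

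MRPL22 (chr5:154320633-154348971, plus strand), whose bacterial counterpart lines the tunnel through which the new protein leaves, had 91.1, 80.9 and 116 CPM in collagen replicates 1, 2 and 4. With DDR1i it had 77.5, 65.3, 58.7 and 65.3 CPM, without overlap (log2 fold change -0.53, SE 0.14, edgeR adjusted p = 0.0428). Collagen replicate 3, at 59.7 CPM, was among the inhibitor libraries.

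MRPL34 (chr19:17403418-17417652, plus strand), the counterpart of bacterial L34, had 92.1, 78.8 and 102 CPM in the same collagen libraries and 71.0, 52.6, 57.5 and 72.1 CPM with DDR1i. Its log2 fold change was -0.53 (SE 0.14, edgeR adjusted p = 0.0469), and collagen replicate 3 had 71.3 CPM. ABHD8 overlaps it on the opposite strand, and without knowledge of strand the reads of the pair cannot be told apart. None of the 4 was called with collagen replicate 3 included (edgeR adjusted p = 0.206 to 0.530) or without collagen replicate 4 (0.0537 to 0.253). The number of members called also depended on other libraries, with 11 called without DDR1i replicate 1 (4.92% of all genes). There was 1 without DDR1i replicate 2 or 4 (1.36% and 0.712%) and 0 without DDR1i replicate 3 (0.447%). Without RUNXi replicate 2 or 4 there were 2 (1.83% and 2.29%). The median stayed between -0.40 and -0.21 when any 1 library was left out, the latter without collagen replicate 4.

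Some members outside the called set had differences of like size but more spread. MRPS17, the counterpart of bacterial S17, had -0.56 (SE 0.21, edgeR adjusted p = 0.144), and MRPL36, the counterpart of bacterial L36, had -0.55 (SE 0.19, edgeR adjusted p = 0.112). In both, collagen replicate 4 alone was far above the rest, with 73.3 CPM against 43.3 and 48.6 in collagen replicates 1 and 2 for MRPS17 and 76.3 CPM against 45.7 and 43.4 for MRPL36. MRPS17 also shares its strand with overlapping genes, NIPSNAP2 among them, so that its counts are uncertain. The smallest differences were those of MRPL52 (-0.07, SE 0.18), MRPL49 (-0.08, SE 0.14) and MRPL51 (-0.10, SE 0.13), and these crossed 0 without collagen replicate 4, to 0.20, 0.06 and 0.06.

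RUNX1 and its relatives bind DNA together with CBFβ, and RUNXi was set against collagen alone in the same way. With RUNXi, 10 of 76 members (13.2%) were called, and all 10 were lower, against 1.46% of genes tested that were called lower and 4.05% called in either direction. Small-subunit genes among them were MRPS7, MRPS22 and MRPS23, and large-subunit genes were MRPL9, MRPL13, MRPL16, MRPL22, MRPL32, MRPL39 and MRPL47. Again all 76 members had a log2 fold change below 0, against 49.5% of all genes. Their median was -0.37 against 0.01 for all genes, and they ranged from -0.72 to -0.11. In 44 members every RUNXi library was below each collagen library tested, against 8.8% of all genes. DDR1i and RUNXi were compared with the same 3 collagen libraries, so the values of both comparisons share whatever is particular to those libraries.

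MRPL22 had the smallest adjusted p. Its RUNXi libraries had 58.0, 62.2, 60.2 and 63.5 CPM, a narrow range below the collagen values of 91.1, 80.9 and 116 CPM given above. The level fell from 96.0 ± 18.2 CPM (SD, n = 3) to 61.0 ± 2.40 CPM (SD, n = 4), a log2 fold change of -0.66 (SE 0.14, edgeR adjusted p = 0.0130). Control libraries had 59.2, 64.6, 61.7 and 65.9 CPM, so RUNXi and control overlapped. With collagen replicate 3 included it was -0.53 (edgeR adjusted p = 0.205).

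MRPL9 (chr1:151732123-151735972, minus strand), the counterpart of bacterial L9, had 105, 114 and 134 CPM in collagen replicates 1, 2 and 4 and 81.4, 81.4, 78.8 and 86.0 CPM with RUNXi. It varied little within groups and fell by 0.53 on the log2 scale (SE 0.13, edgeR adjusted p = 0.0234). Collagen replicate 3 had 82.5 CPM, in the range of the RUNXi libraries. OAZ3 overlaps MRPL9 on the opposite strand.

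MRPL47 (chr3:179306073-179322437, minus strand), whose promoter is shown above, had 55.4, 71.1, 85.9 and 69.8 CPM with RUNXi, all below the 98.2 to 109 CPM in the collagen libraries tested. RUNXi replicate 1 was the lowest and replicate 3 the highest, which is a wide spread for a called member (log2 fold change -0.54, SE 0.14, edgeR adjusted p = 0.0325). With DDR1i it had 88.3, 73.3, 68.0 and 73.2 CPM.

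MRPL32 had 72.9, 74.3, 82.5 and 83.7 CPM with RUNXi (log2 fold change -0.47, SE 0.13, edgeR adjusted p = 0.0342). MRPL16, the counterpart of bacterial L16, which reaches towards the peptidyl transferase centre, had 115, 101 and 141 CPM in collagen and 82.0, 82.8, 87.1 and 91.2 CPM with RUNXi (-0.48, SE 0.13, edgeR adjusted p = 0.0386). MRPL13 had 162, 133 and 172 CPM in collagen and 114, 103.9, 113 and 118 CPM with RUNXi (-0.47, SE 0.13, edgeR adjusted p = 0.0451). In all 3 genes the groups did not overlap, and collagen replicate 3 was below the other collagen libraries, with 71.8, 91.2 and 106 CPM. MRPL39, a large-subunit protein without a bacterial counterpart, had 51.3, 57.2 and 73.4 CPM in collagen and 27.7, 48.3, 41.8 and 44.2 CPM with RUNXi (-0.59, SE 0.17, edgeR adjusted p = 0.0487). RUNXi replicate 1 was far below the other RUNXi libraries for this gene, and collagen replicate 3 had 46.4 CPM.

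In the small subunit, MRPS7 corresponds to bacterial S7, which organizes the head of the subunit around its RNA. It had 90.8, 123 and 123 CPM in collagen and 80.5, 82.2, 71.6 and 86.8 CPM with RUNXi (log2 fold change -0.49, SE 0.13, edgeR adjusted p = 0.0389). MRPS22, in which inherited variants cause mitochondrial disease, had 70.6, 78.6 and 105 CPM in collagen and 64.1, 63.3, 52.2 and 60.0 CPM with RUNXi (-0.51, SE 0.14, edgeR adjusted p = 0.0456). MRPS23 had 89.0, 90.4 and 109.9 CPM in collagen and 71.4 ± 3.10 CPM (SD, n = 4) with RUNXi (-0.44, SE 0.13, edgeR adjusted p = 0.0458). In all 3 genes the groups did not overlap, and in MRPS22 collagen replicate 4 was far above replicates 1 and 2. Collagen replicate 3 was among or below the RUNXi libraries, with 89.7, 51.6 and 74.8 CPM for MRPS7, MRPS22 and MRPS23, except that MRPS7 was slightly above them.

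**Figure D4:**
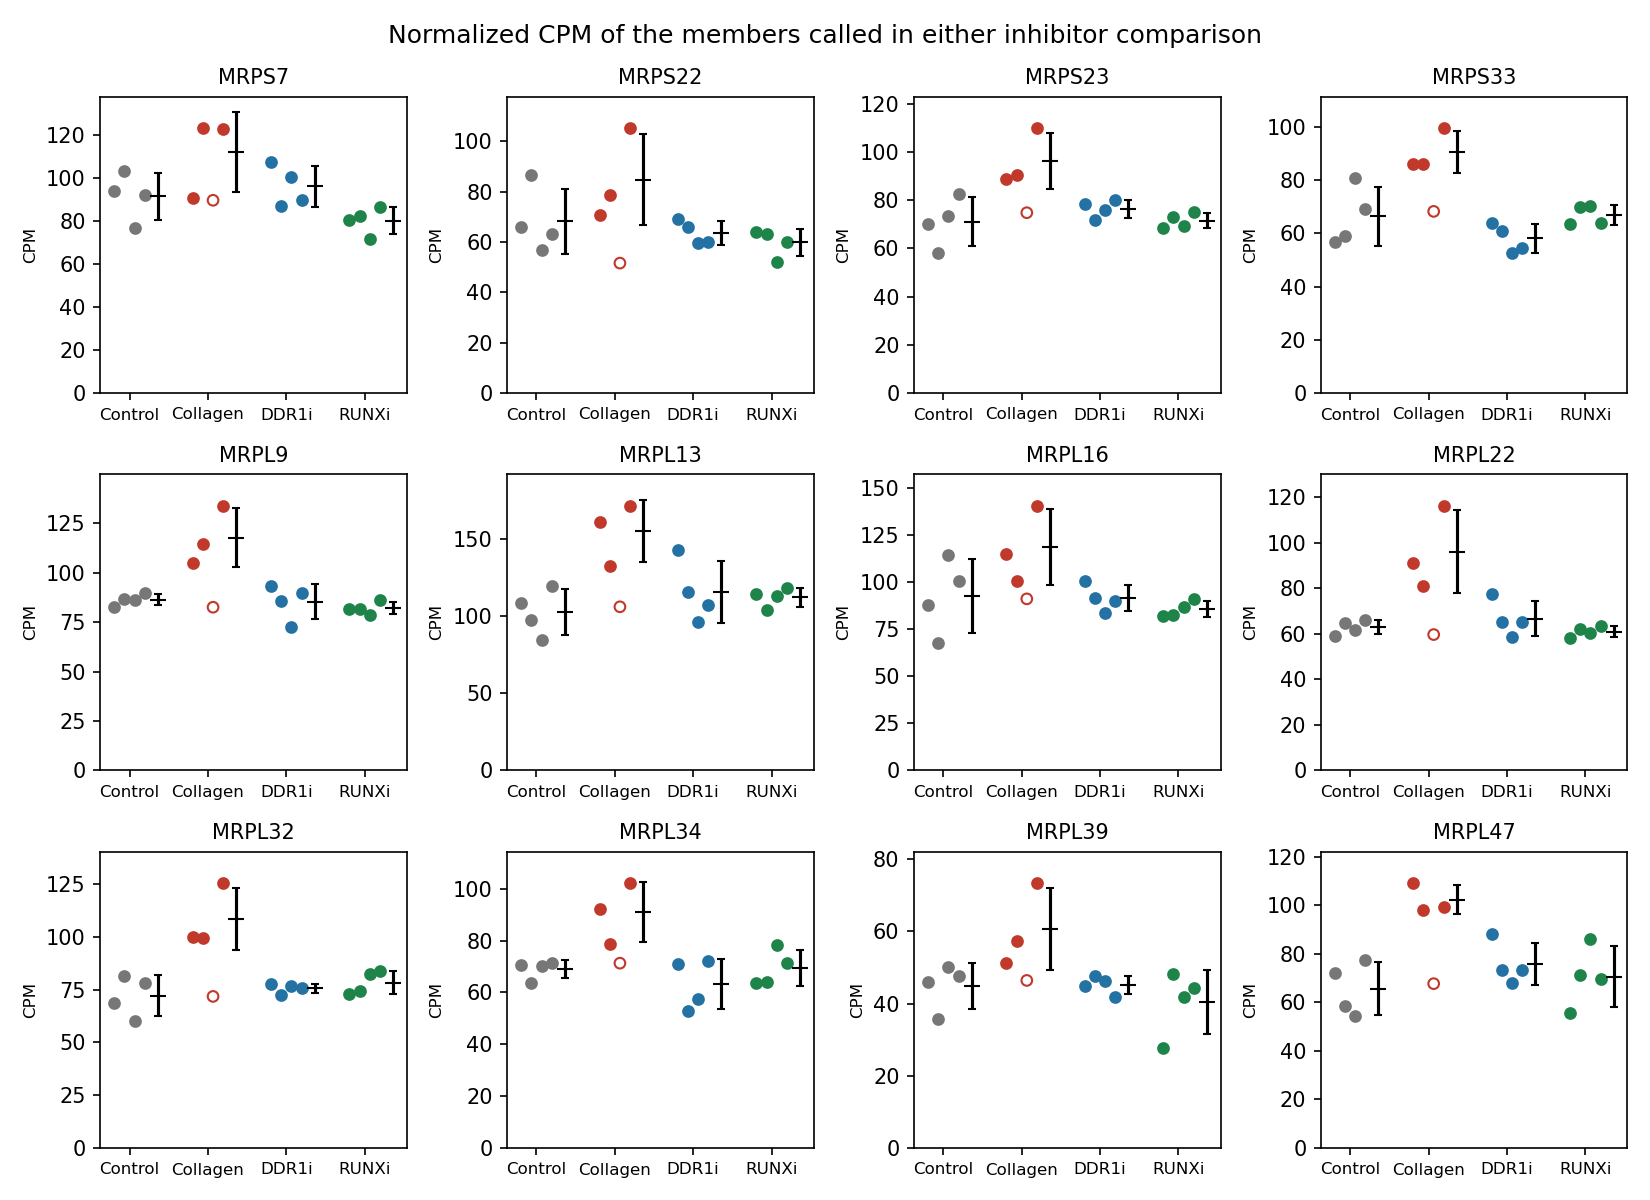
Normalized CPM of the 12 members called in either inhibitor comparison, by library and group, with mean ± SD in black. Collagen replicate 3 (open circles, outside the mean) lies below the other collagen libraries in each panel, for example with 51.6 CPM for MRPS22.

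Just outside the threshold with RUNXi were MRPS17, which had the lowest log2 fold change of all members (-0.72, SE 0.21, edgeR adjusted p = 0.0502), and MRPS33 (-0.44, SE 0.13, edgeR adjusted p = 0.0504). Just inside it was MRPL39. None of the 10 members was called with collagen replicate 3 included or without collagen replicate 4, and in these fits the median of the 76 was -0.29 and -0.23, with 76 and 72 members below 0. Leaving out collagen replicate 1 gave 20 called members (5.12% of all genes), and DDR1i replicate 2 or 4 gave 6 (3.67% and 3.52%). Leaving out RUNXi replicate 1 gave 3 (2.48%), and RUNXi replicate 2, 3 or 4 gave 2 (2.11%, 1.41% and 1.66%). With the trend with transcript length removed from each library, 5 members were called (1.45% of all genes), but they were not a subset of the 10. Of the 10, only MRPL22 and MRPS23 were still called (edgeR adjusted p = 0.0110 and 0.0141). The others had an edgeR adjusted p of 0.149 to 0.263, and MRPS33, not called before, had 0.0311. The median was then -0.21 against -0.01 for all genes. With DDR1i, 6 were called after this removal (1.15% of all genes) and the median was -0.24 against -0.05. Of the 4 called before it, MRPS33 and MRPL22 were still called (edgeR adjusted p = 0.00549 and 0.0357). MRPL32 and MRPL34 were not (0.0789 and 0.105), and MRPS23 was newly called (0.0383).

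**Figure D5:**
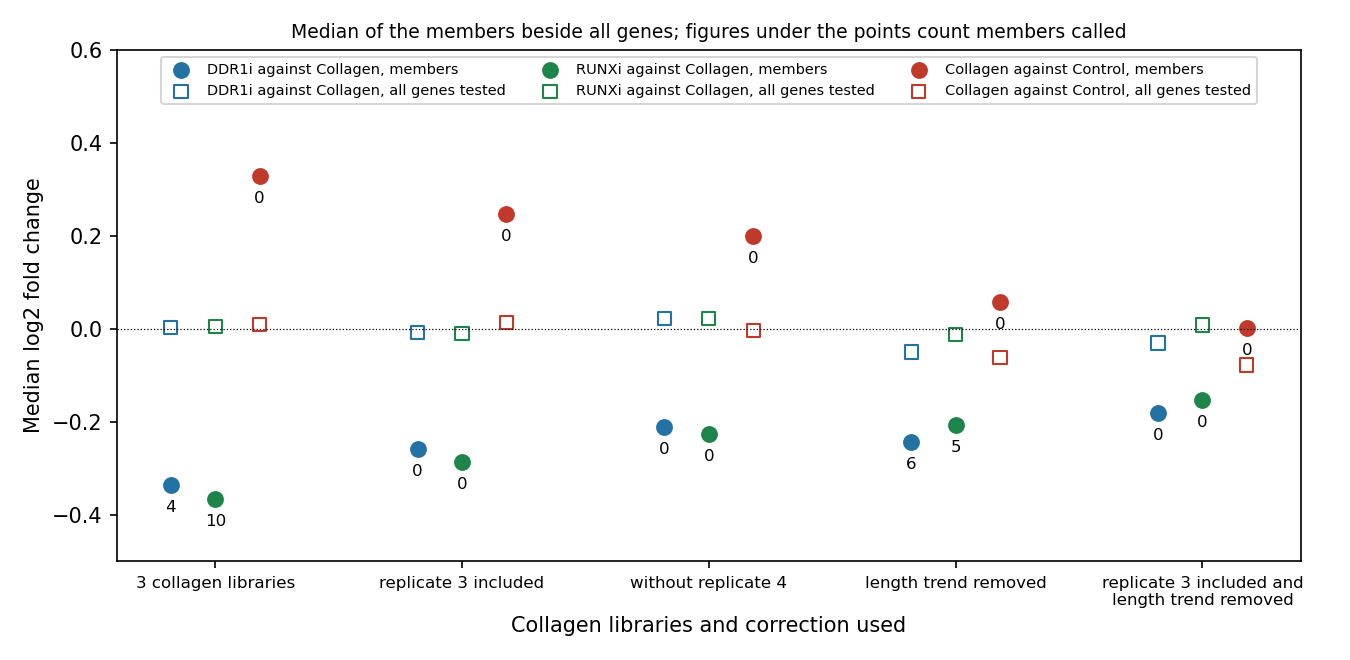
Median log2 fold change of the 76 members (circles) and of all genes tested (squares) under 5 choices of collagen libraries and of length correction, with the number of members called printed under each circle. For the inhibitors the medians of the members stay below 0, from -0.37 to -0.15, and for collagen against control they go from 0.33 to 0.00.

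The subdivisions of the members had similar medians. With DDR1i the median log2 fold change was -0.34 for the 28 MRPS genes and -0.31 for the 48 MRPL genes, and with RUNXi it was -0.36 and -0.37. For members with a bacterial counterpart the medians were -0.35 with DDR1i and -0.37 with RUNXi, and for those without one -0.29 and -0.37. The 38 members with the shorter transcripts had medians of -0.34 and -0.40, and the 38 with the longer ones -0.33 and -0.32. The 36 members with a named pseudogene had medians of -0.35 and -0.39, against -0.33 and -0.35 for the other 40. The 36 that overlap another protein-coding gene had -0.33 and -0.36, against -0.34 and -0.37. No test was made between these subdivisions.

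DDR1i and RUNXi were then compared with each other, without use of a collagen library in the contrast. By edgeR, 0 of 76 members were called, against 0.568% of all genes, and DESeq2 called 0 as well, against 0.989%. The median log2 fold change of DDR1i against RUNXi was 0.03 against 0.01 for all genes, and 48 members were above 0, against 51.2% of all genes. At an unadjusted p under 0.05, 3 members were higher with DDR1i (3.2% of all genes) and 0 were lower (2.99%). These were MRPL20 (0.41, SE 0.15, edgeR adjusted p = 0.516), MRPL51 (0.30, SE 0.12, edgeR adjusted p = 0.634) and MRPS7 (0.27, SE 0.12, edgeR adjusted p = 0.768). MRPL20, which corresponds to bacterial L20, had 110, 81.3, 73.1 and 95.2 CPM with DDR1i and 58.3, 76.5, 52.9 and 82.7 CPM with RUNXi, so the groups overlapped. MRPS7 was the 1 member in which every DDR1i library (87.2 to 108 CPM) was above every RUNXi library (71.6 to 86.8 CPM), against 2.27% of all genes. The lowest values were those of MRPS14 (-0.29, SE 0.15), MRPS30 (-0.20, SE 0.16) and MRPS33 (-0.20, SE 0.12). A p above the threshold does not show that the inhibitors act alike on these genes.

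The inhibitor groups were also set against the vehicle control, a comparison that does not use any library treated with collagen alone and in which collagen and inhibitor cannot be told apart. With DDR1i, 0 of 76 members were called by edgeR (0.212% of all genes) and 0 by DESeq2 (0.492%). The median log2 fold change was 0.01, the same as for all genes, and 41 members were above 0, against 52.0% of all genes. With the trend with transcript length removed it was -0.16, with 63 members below 0. The median of all genes was -0.11 in that fit, so most of all genes were below 0 as well. At an unadjusted p under 0.05, 1 member was higher (2.76% of all genes), MRPL51, which belongs to the large subunit and has no bacterial counterpart (0.25, SE 0.11, edgeR adjusted p = 0.888). MRPL48 (0.33, SE 0.16) and MRPL24 (0.22, SE 0.12) were also at the upper end, and MRPS30 (-0.35, SE 0.19), MRPS2 (-0.26, SE 0.13) and MRPS18C (-0.25, SE 0.22) at the lower end.

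With RUNXi, 0 of 76 members differed from the control by edgeR (0.401% of all genes) and 0 by DESeq2 (0.81%). The median was -0.04 against 0.00 for all genes, with 44 members below 0, against 49.7% of all genes. With the trend with transcript length removed it was -0.13, with 62 members below 0. The median of all genes was -0.07 in that fit, so most of all genes were below 0 as well. At an unadjusted p under 0.05, 2 members were lower (3.38% of all genes). MRPL20 had 58.3, 76.5, 52.9 and 82.7 CPM with RUNXi against 89.6, 92.7, 94.4 and 83.9 CPM in the control, without overlap (-0.41, SE 0.15, edgeR adjusted p = 0.490). MRPS2, the counterpart of bacterial S2, had -0.29 (SE 0.13, edgeR adjusted p = 0.671), and its groups overlapped. MRPS18C (-0.29, SE 0.22) was also at the lower end, and MRPS14 (0.30, SE 0.16), MRPL24 (0.21, SE 0.12) and MRPS36 (0.17, SE 0.19) were at the upper end. For 3 members every RUNXi library was below every control library, against 1.98% of all genes.

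Genes that work with the mitochondrial ribosome were read from the same fits, in which 0.775% of all genes were called lower with DDR1i and 1.46% with RUNXi. With 1 called gene a list, the counts below are too small to set against these shares. Of 7 further ribosomal proteins with other symbols, 0 were called with DDR1i (median log2 fold change -0.18) and 1 was lower with RUNXi (median -0.35). This was ICT1, a ribosome component with peptidyl-tRNA hydrolase activity that releases stalled chains, which fell from 73.1 ± 9.35 CPM (SD, n = 3) to 50.9 ± 4.53 CPM (SD, n = 4), with a log2 fold change of -0.53 (SE 0.14, edgeR adjusted p = 0.0323) and 54.6 CPM in collagen replicate 3. Of 29 genes of ribosome assembly and rRNA maturation, 0 were called with DDR1i (median -0.23) and 1 was lower with RUNXi (median -0.24), the 16S rRNA methyltransferase gene FTSJ2 (-0.52, SE 0.14, edgeR adjusted p = 0.0419). Of 17 translation factors, 0 were called with DDR1i (median -0.16) and 1 was lower with RUNXi (median -0.20), MRRF, which encodes the ribosome recycling factor (-0.49, SE 0.14, edgeR adjusted p = 0.0437). With collagen alone these genes had 83.4 ± 14.4 and 79.9 ± 11.3 CPM (SD, n = 3), and collagen replicate 3 had 59.5 and 62.5 CPM. None of ICT1, FTSJ2 and MRRF was called with collagen replicate 3 included (edgeR adjusted p = 0.222, 0.281 and 0.246) or without collagen replicate 4 (0.182, 0.256 and 0.241). With the trend with transcript length removed, MRRF was called (-0.81, edgeR adjusted p = 0.0109), and ICT1 (-0.32, 0.239) and FTSJ2 (-0.37, 0.148) were not.

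In the more distant groups, none of the genes was called by edgeR in either comparison. The medians with DDR1i and RUNXi were -0.13 and -0.06 for 20 mitochondrial aminoacyl-tRNA synthetases and -0.29 and -0.16 for 11 genes of mitochondrial transcription and RNA processing. For 9 nuclear regulators of mitochondrial genes they were -0.09 and -0.01. Against these, the 76 members had the lower median in both comparisons, a difference that was not tested. Of 15 symbols listed for the proteins and rRNAs encoded by mitochondrial DNA, 0 were in the count table, so these genes could not be analysed here.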

How the data were processed

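The RUNX inhibitor was AI-10-104. The authors sequenced TruSeq libraries in paired-end mode, aligned the reads to hg19 (GRCh37) with STAR and deposited raw read counts per gene and library. The counting tool, annotation and use of strand are not given in the sources used here. All columns were mapped to a sample by the labels. Genes were placed with GENCODE lifted to GRCh37 (23930 names matched, 1324 of them by older symbols), and length was that of the canonical transcript.

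The fits were made over all genes in R 4.3.3 with edgeR 4.0.16 (TMM, filterByExpr, robust quasi-likelihood fit, Benjamini-Hochberg adjustment over all genes tested, threshold 0.05). DDR1i, RUNXi and collagen shared a fit of 11 libraries, collagen and control one of 7, and control and both inhibitors one of 12. DESeq2 1.42.0 was an alternative, with other filters, normalizations, libraries left out, a replicate block and trends removed by splines with 4 degrees of freedom. CPM values are TMM-normalized over all 16 libraries. Replicates within each group differed by far more than counting noise (lowest chi-square per degree of freedom 18.7), so none was a repeated deposit of another in its group. Libraries of different groups were not compared in this way. The fits were tested on simulated data. Figures were drawn with Python 3.11.15 and matplotlib 3.10.9.

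The members and the gene lists were chosen with earlier results of these data known. Named are, per comparison, the called members (at most 10 higher and 10 lower, by adjusted p), or, where fewer than 6 were called, also the 3 highest and 3 lowest by log2 fold change, with the 5 highest and 5 lowest per kilobase and the 3 with the largest and smallest within-group SD. MRPS17 with RUNXi, and genes of the other lists, were named after their values were seen. MRPL47 was moved to the members with a bacterial counterpart after its values were seen.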

Additional observations from a re-analysis of the deposited data

Results flagged for a closer look

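Within each group of 4 libraries, the library farthest from the others was examined for the CPM of the 37 named members and for 4 measures of a library (the total, the score, the share of counts on members and the slope with transcript length), as the gap to its nearest neighbour over the range of the group, against Dixon's critical value. This was exceeded in 10 of 164 groups examined, and chance gives about 1 in 20 of them, or 8.2. Among these values, MRPL36 had 76.3 CPM in collagen replicate 4 against 43.3 to 45.7 in the other collagen libraries, and 57.0 CPM in control replicate 2 against 36.2 to 39.0. MRPL34 had 63.6 CPM in control replicate 2 against 70.3 to 71.5, and MRPS17 33.5 CPM in control replicate 1 against 42.9 to 43.5. With DDR1i, MRPL42 had 58.1 CPM in replicate 4 against 66.8 to 68.5, and MRPL54 33.0 CPM in replicate 2 against 46.7 to 49.4. With RUNXi, MRPL48 had 42.1 CPM in replicate 1 against 48.7 to 49.8, MRPL49 had 69.2 CPM in replicate 1 against 83.2 to 84.8, and MRPL51 had 140.0 CPM in replicate 3 against 114 to 118. The total of collagen replicate 1 was 17570707 counts against 26642600 to 27695778 in the other collagen libraries.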

How the results depend on the processing

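The 12 results were the number of members called and their median log2 fold change in each of 6 comparisons. For DDR1i and RUNXi against collagen, the number called was 43 and 53 at an unadjusted p (18% and 21.1% of all genes). With DESeq2 it was 14 and 24 (6.08% and 8.44%), and without a low-count filter 10 and 26 (4.22% and 5.84%). It was 2 and 6 with robust fitting off (2.27% and 3.44%) and 12 and 19 with the trend with GC content removed (3.62% and 5.35%). Collagen replicate 3 included gave 0 and 0 (0.0674% and 0.449%), also with removal of the length trend (0.0599% and 0.472%). With all 4 groups in the fit RUNXi had 2 (2.88%). With the length trend removed RUNXi had 5 members called (1.45%) and a median of -0.21. With collagen replicate 3 included and the length trend removed the medians were -0.18 for DDR1i and -0.15 for RUNXi. For collagen against control, 29 members were called at an unadjusted p (13.4% of all genes) and 6 with DESeq2 (3.17%). There were 5 without a filter (1.57%) and 5 with all 4 groups in the fit (2.28%). The median was 0.058 with the length trend removed and 0.0025 with collagen replicate 3 included as well. Against RUNXi, 3 members differed with DDR1i at an unadjusted p (6.19% of all genes), and against control 1 with DDR1i (5.13%) and 2 with RUNXi (6.81%). The median of DDR1i against control was -0.16 with the length trend removed, where that of all genes was -0.11, so that the shift relative to all genes was small.

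Replicate numbers were not taken to pair the libraries, because 8 of 21 pairs of same-numbered libraries had correlated deviations over 0.1 (range -0.16 to 0.30). All 6 pairs of replicate 4 libraries were among them (0.127 to 0.304), against 2 of the 15 pairs with other numbers, so collagen replicate 4 shared some of its deviation with the replicate 4 libraries of the other groups. With the replicate number as a block, 7 members were called with DDR1i and 12 with RUNXi against collagen (3.96% and 5.6% of all genes). With the block and the length trend removed these were 8 and 5 (3.29% and 3.11% of all genes). The medians were then -0.21 for RUNXi against collagen, 0.072 for collagen against control and -0.15 for DDR1i against control.

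When 1 library was left out at a time, the number called ranged from 0 to 11 for DDR1i and from 0 to 20 for RUNXi against collagen. The share of all genes called ranged from 0.447% to 4.92% and from 0.876% to 5.12%, and the medians from -0.40 to -0.21 and from -0.46 to -0.23. In the other 4 comparisons the number of members called was 0 throughout, and the median ranged from 0.20 to 0.41 for collagen against control.

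Fold changes of named members changed sign in 29 instances, all of them of members that were not called, and most of these fold changes were small. For DDR1i against collagen, MRPL51 became 0.029 with the length trend removed and 0.078 with collagen replicate 3 included as well, where MRPL49 became 0.026 and MRPL52 0.11. MRPL52 became 0.078 with the length trend removed and 0.056 with the block as well. With 1 library left out, MRPL51 ranged from -0.19 to 0.065, MRPL49 from -0.18 to 0.060 and MRPL52 from -0.23 to 0.20, with each highest value without collagen replicate 4. For collagen against control, MRPS30 became 0.0023 without a filter and 0.024 without control replicates 2 and 3 together. MRPL30 became -0.011 with collagen replicate 3 included, -0.027 with the GC trend removed and -0.029 with collagen replicate 3 included and the length trend removed. MRPS2 became -0.00451 with collagen replicate 3 included, -0.22 with the length trend removed, -0.11 with the block as well and -0.26 with collagen replicate 3 included and the length trend removed. With 1 library left out, MRPS30 ranged from -0.16 to 0.18, MRPL30 from -0.035 to 0.13 and MRPS2 from -0.042 to 0.14. MRPS18C was at the lower end of the members with both inhibitors against control, so its changes were not small. It became 0.25 with DDR1i and 0.21 with RUNXi against control without control replicates 2 and 3 together. The cause was not tested for any of these. Leaving out both control replicates, and including collagen replicate 3 with the length trend removed, were chosen after seeing the data.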

Other observations

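The symbols MRPS18A, MRPS18B and MRPS18C belong to 3 paralogs that all correspond to bacterial S18, of which MRPS18A is placed in the large subunit. Per kilobase of transcript, MRPS18B was highest with 49.7 CPM, followed by MRPS18A with 37.1 CPM and MRPS18C with 16.5 CPM, as means over 16 libraries. Against collagen alone, MRPS18A had log2 fold changes of -0.34 (SE 0.16) with DDR1i and -0.48 (SE 0.16) with RUNXi. The corresponding values were -0.15 (SE 0.15) and -0.25 (SE 0.15) for MRPS18B and -0.37 (SE 0.18) and -0.40 (SE 0.18) for MRPS18C. None of the 3 was called by edgeR (smallest adjusted p = 0.0910, for MRPS18A with RUNXi). MRPS18C was the most variable of them in the control, with 16.8, 38.0, 34.1 and 22.1 CPM, and had 22.3 to 22.8 CPM in the 4 RUNXi libraries.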
